A study of Caenorhabditis elegans with 2 samples.

Results

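Genes for transfer RNA on the X chromosome of Caenorhabditis elegans were examined in chromatin immunoprecipitation and sequencing (ChIP-seq) of the LIM homeodomain factor TTX-3 from whole late embryos. The set held every gene annotated as a tRNA gene on X in Ensembl release 115 on WBcel235, which has the coordinates of ce11. These were 276 of 612 nuclear tRNA genes, among 46890 annotated nuclear genes. The rule uses the annotation alone. The samples form 1 group, 2 biological replicates of late embryos of strain OP68, genotype unc-119(ed3) III; wgIs68, hermaphrodite, taken 4 hours after synchronisation by bleaching eggs. All embryos of both replicates came from this single transgenic line, which carried the unc-119 allele as well as TTX-3 joined at its C-terminus to a GFP-FLAG tag, and the sample descriptions give an antibody against GFP, while the antibody field of the labels reads ttx-3. TTX-3 is known for its role in the identity of certain neurons, whereas the chromatin came from the whole embryo, so the lists cannot tell which cells a region came from.

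Transfer RNAs carry amino acids to the ribosome and pair with codons through a triplet, the anticodon. tRNAs that carry the same amino acid form an isotype, and some isotypes have several anticodons. Their genes are short and are transcribed by RNA polymerase III. The promoter lies inside the gene as the A box and the B box, which the factor TFIIIC binds before TFIIIB places the polymerase at the 5′ end, and transcription stops at a run of T after the gene. In C. elegans many tRNA genes are exact copies of each other, and many of them lie on X.

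The authors deposited a ranked list of 30000 regions for each replicate, a pooled list of 30000 regions from both replicates together, and a list of 700 regions kept by their reproducibility filter, called the optimal list here. Each region has a summit and a signal, the strength given by the authors' peak caller, with no stated unit. A gene was scored by the strongest summit within 100 bp of it. All 700 optimal regions were the 700 strongest of the pooled list, so the optimal list marks a signal of at least 72.5 and not a separate measurement. The lists hold no read counts, so depth is unknown. The lists end at signals of 19.4 (pooled), 11.1 (replicate 1) and 12.2 (replicate 2), and a gene without a summit may have a signal below these ends.

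The sequences of some genes are given first, so that genes with and without a summit can be compared letter by letter. Scoring did not use these sequences. They were read 5′ to 3′ on the gene strand from the WBcel235 genome of RefSeq, and capitals mark matches to the core of the A box (TNGCNNAG) and of the B box (GTTCNANNC). The gene with the strongest summit was C40H5.t1, a leucine tRNA gene with anticodon TAA at chrX:11757831-11757914 on the minus strand, with a pooled signal of 557.
C40H5.t1: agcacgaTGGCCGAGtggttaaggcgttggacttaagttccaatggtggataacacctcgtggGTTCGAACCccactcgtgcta
The leucine tRNA genes with anticodon CAA show how near-identical genes differed. Each of these 3 genes carries an intron just after its anticodon: C04A11.t1 (chrX:13665555-13665673, plus strand) had a pooled signal of 435, F42F12.t1 (chrX:12348007-12348126, minus strand) had 63.6, and F02D10.t3 (chrX:13443386-13443504, minus strand) had no summit in any list. The first run of capitals after the A box in F02D10.t3 is an extra match to the B box letters inside the intron.
C04A11.t1: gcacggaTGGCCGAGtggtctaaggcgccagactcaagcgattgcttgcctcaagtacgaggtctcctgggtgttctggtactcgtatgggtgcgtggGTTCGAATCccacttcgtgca
F42F12.t1: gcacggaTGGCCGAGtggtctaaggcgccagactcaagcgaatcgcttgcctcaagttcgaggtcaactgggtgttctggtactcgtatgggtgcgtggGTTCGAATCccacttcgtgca
F02D10.t3: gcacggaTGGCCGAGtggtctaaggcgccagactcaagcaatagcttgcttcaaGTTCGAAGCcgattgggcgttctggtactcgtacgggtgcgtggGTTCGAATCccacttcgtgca
The histidine tRNA gene C06G1.t1 (chrX:16634830-16634901, minus strand) is shown because 7 other genes on X have exactly its sequence, and the tyrosine tRNA gene C02B4.t2 (chrX:12665228-12665311, plus strand) because 5 others do. C16B8.t2 (chrX:3970096-3970167, plus strand), a proline tRNA gene, is shown as a gene in the optimal list without a match to either box.
C06G1.t1: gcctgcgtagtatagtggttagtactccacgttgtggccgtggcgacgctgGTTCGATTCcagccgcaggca
C02B4.t2: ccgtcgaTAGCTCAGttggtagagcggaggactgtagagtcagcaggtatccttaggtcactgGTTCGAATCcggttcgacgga
C16B8.t2: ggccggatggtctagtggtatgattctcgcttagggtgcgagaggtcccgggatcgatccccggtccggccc

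A summit of the pooled list lay within 100 bp of 138 of the 276 tRNA genes on X, which is 50% (exact 95% interval 43.9% to 56.1%). A summit of the optimal list lay there at 79 genes, 28.6% (23.4% to 34.3%). Both replicate lists had a summit at 109 genes, 39.5%. Among all nuclear genes scored in the same way, 24.3% had a pooled summit, 1.56% an optimal one and 15.4% a summit in both replicates. Gene lengths differ, so X was also divided into tiles of 272 bp, the length of a median tRNA gene of 72 bp with its flanks. Of 65143 tiles, 6.75% held a pooled summit, 0.216% an optimal summit and 1.7% a summit in both replicates. These intervals, like all others here, are exact binomial intervals that cover counting error only. Identical and neighbouring genes are not independent of each other, and with 1 condition there is no test between groups.

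tRNA genes on chromosomes II to V were scored in the same way, and those outside X and II to V were not compared. Of 270 tRNA genes on chromosomes II to V, 53.3% had a pooled summit (47.2% to 59.4%), 25.9% an optimal one (20.8% to 31.6%) and 40.7% a summit in both replicates. The intervals of X and of II to V overlap in both lists. By chromosome, the optimal share was 26.3% on II, 32.8% on III, 29.6% on IV and 16.7% on V, where the interval was 9.18% to 26.8%. The median pooled signal of the genes with a summit was 89.4 on X and 71.0 on II to V. With only 1 gene of each group of identical sequences, the first by position, these medians were 153 on X and 75.3 on II to V. The II to V value was computed after the data had been seen. The gap thus depends on how copies are counted, and it may depend on which copy is kept. The strongest were 557 on X and 289 on II to V. The value of 557 belongs to C40H5.t1, which lies near ttx-3, where copy number is unknown in this line. The next strongest on X was C04A11.t1 at 435. The whole pooled list had a median of 26.9. Of the 138 genes on X with a pooled summit, 103 lay in the top 10% of the pooled list by signal.

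Seen from the regions, tRNA genes made up most of the strong summits of X. The optimal list held 143 regions on X, and 77 of them (53.8%) had a tRNA gene within 100 bp. Among the 20 strongest regions of X the number was 18. Among all 4493 pooled regions of X it was 134, or 2.98%.

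**Figure D1:**
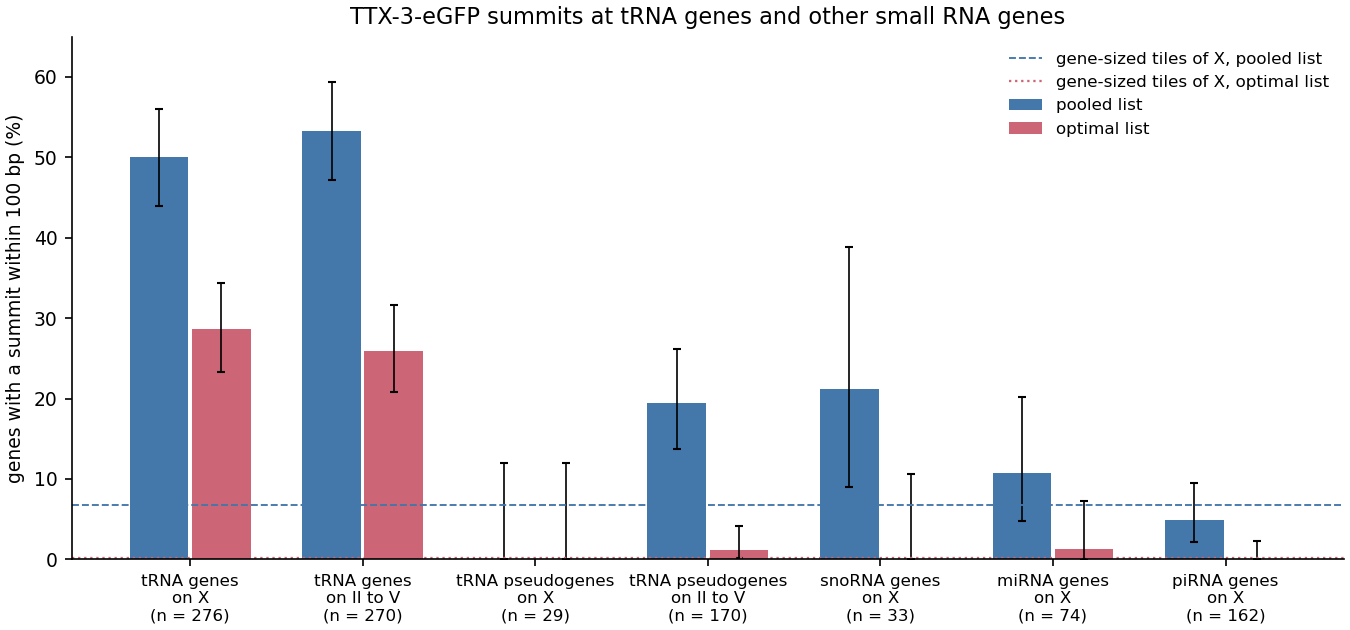
Share of genes with a summit within 100 bp (vertical axis, percent) in the pooled list (blue) and the optimal list (red), by gene class, with exact 95% binomial intervals that cover counting error only. Dashed and dotted lines give the shares of 272-bp tiles of X, 6.75% and 0.216%. tRNA genes on X (50% and 28.6%) and on II to V (53.3% and 25.9%) are the highest pairs of bars, and tRNA pseudogenes on X have bars at 0.

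Other small RNA genes of X were scored for comparison. Of 3 snRNA genes 1 had a pooled summit, with an interval of 0.84% to 90.6% that spans that of the tRNA genes. Pooled summits lay at 7 of 33 snoRNA genes (21.2%), whose products guide modification of other RNAs, and at 8 of 74 miRNA genes (10.8%). Among piRNA genes, which encode small RNAs that guard the germline, the count was 8 of 162 (4.94%). The optimal list had a summit at 1 miRNA gene (1.35%), none at a snoRNA gene (upper limit 10.6%) and none at a piRNA gene (upper limit 2.25%). The interval of tRNA genes on X, 43.9% to 56.1%, lies above those of the snoRNA genes (8.98% to 38.9%), the miRNA genes (4.78% to 20.2%) and the piRNA genes (2.16% to 9.50%).

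tRNA pseudogenes, copies that have lost the form of a working tRNA, were taken from RefSeq. None of the 29 on X had a pooled summit, which allows a share of up to 11.9%. The single summit at any of them was in replicate 2, with a signal of 15.4. Matches to the B box core were present in 17 of these 29 pseudogenes. On II to V, 33 of 170 pseudogenes (19.4%, interval 13.8% to 26.2%) had a pooled summit and 2 (1.18%) an optimal one, and 145 of the 170 had a B box match. The letters of the B box were thus present at most pseudogenes of II to V, of which few were in the optimal list.

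The tRNA genes of X were compared between the replicates, whose lists were made with the same control file. Of the 276 genes, 140 had a summit in replicate 1 and 133 in replicate 2. Both lists had the gene in 109 cases, replicate 1 alone in 31, replicate 2 alone in 24 and neither in 112. Over the 109 genes the Spearman correlation of signal was 0.881 and the Pearson correlation of log2 signal 0.875. This describes genes that share the same libraries, some of which share a summit, and it leaves out the 55 genes that a single list held. The same correlation over 110 tRNA genes of II to V was 0.806. The ratio of replicate 1 to replicate 2 had a median of 1.01 (quartiles 0.848 and 1.25), with replicate 1 higher at 56 genes and replicate 2 at 53. The median signal of the genes found was 46.3 in replicate 1 and 46.6 in replicate 2, while the whole lists had medians of 15.5 and 16.7.

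The genes that only 1 replicate listed were mostly weak. Their median signal was 16.6 for replicate 1 alone and 18.1 for replicate 2 alone, close to the medians of the whole lists. The strongest listed by replicate 1 alone was rte-5, a glutamate tRNA gene, at 58.8. The strongest listed by replicate 2 alone was C53C7.t2, a serine tRNA gene with anticodon CGA, at 135.0. Its pooled signal was 222, and the nearest summit of replicate 1 lay 106 bp away with a signal of 95.2, in a region that overlapped the gene. It was therefore the 100-bp rule that kept it out of replicate 1. That replicate 1 summit was counted for its neighbour C53C7.t1, another serine tRNA gene, with 95.2 in replicate 1 and 35.9 in replicate 2.

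Of the 79 genes in the optimal list, 77 were in both replicate lists. The exceptions were C53C7.t2 and C02D4.t1, an isoleucine tRNA gene in an intron of ser-2, which encodes an amine receptor. C02D4.t1 had a pooled signal of 111 and 53.3 in replicate 1, and the nearest summit of replicate 2 lay 113 bp away with 50.2. Again its region overlapped the gene. Conversely, 3 genes had a pooled summit and none in either replicate: R11B5.t3 (25.4), C56G3.t1 (20.6) and C06G1.t3 (34.7). The 2 genes in both replicates but not the pooled list were F15G9.t2, with 76.7 in replicate 1 and 70.8 in replicate 2, and C52G5.t1, with 34.1 in replicate 1 and 26.7 in replicate 2. For F15G9.t2 the nearest pooled summit was 148 bp away, at 315, and was counted for its neighbour F15G9.t1. For C52G5.t1 the nearest pooled summit was 3809 bp away.

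The 3 largest and 3 smallest ratios of replicate 1 to replicate 2 were at genes with pooled signals from 49.4 to 107. Y59E1B.t2, a proline tRNA gene, had 85.5 in replicate 1 and 24.7 in replicate 2, a ratio of 3.46. K11E4.t6, a lysine tRNA gene in an intron of pix-1, had 47.4 in replicate 1 and 17.9 in replicate 2. C53C7.t1, named above, had 95.2 in replicate 1 and 35.9 in replicate 2, and both of these genes had a ratio of 2.65. In the other direction R11B5.t1, a threonine tRNA gene in an intron of tbc-12, had 12.4 in replicate 1 and 38.4 in replicate 2, a ratio of 0.323. C03F11.t1 (methionine) had 19.9 in replicate 1 and 46.9 in replicate 2, and F01G12.t1 (glutamate) had 17.6 in replicate 1 and 38.0 in replicate 2. With 1 value per replicate no error can be given for a single gene.

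**Figure D2:**
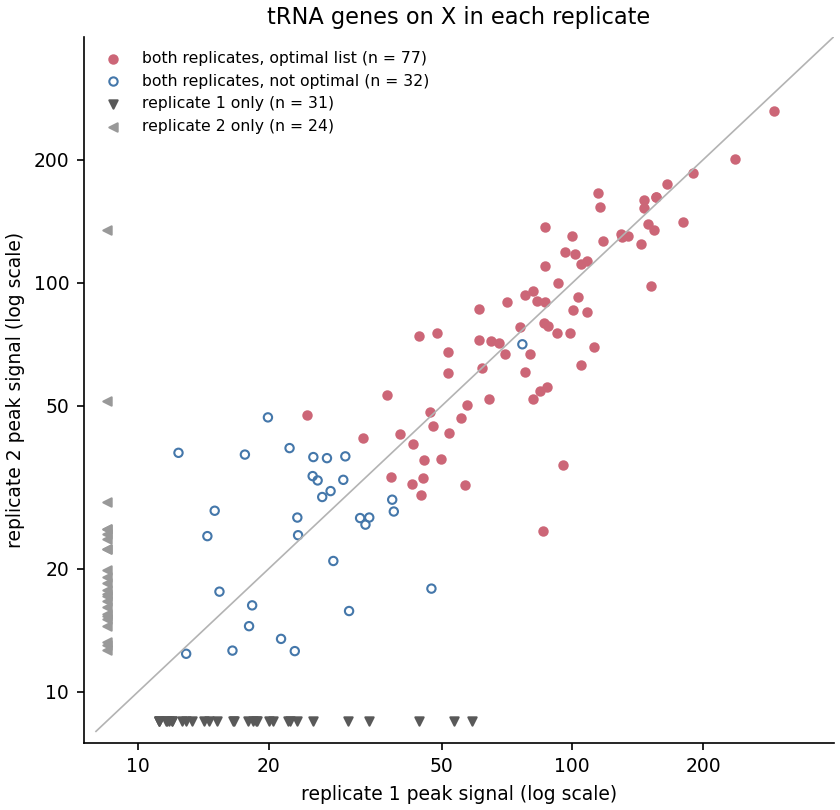
Signal in replicate 1 (horizontal axis) against replicate 2 (vertical axis), both on log scales, with 1 point for each tRNA gene on X found in either list and a line of equality. Filled red points are the 77 genes also in the optimal list, open blue points the other 32 genes of both lists, and triangles at the edges the 31 genes of replicate 1 alone and the 24 of replicate 2 alone. Points lie along the line from the weakest to C40H5.t1 at the top right, with 292 in replicate 1 and 263 in replicate 2.

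The 10 genes with the strongest pooled signal came from 7 isotypes. C40H5.t1 had 557 in the pooled list, 292 in replicate 1 and 263 in replicate 2, and ranked 9 among the 30000 pooled regions. C04A11.t1, the leucine tRNA gene with anticodon CAA printed above, had 435 in the pooled list, 237 in replicate 1 and 201 in replicate 2. W03G11.t1, a lysine tRNA gene with anticodon CTT, had 371 in the pooled list, 189 in replicate 1 and 186 in replicate 2. These 3 were intergenic and had no other tRNA gene within 500 bp. C42D8.t1 (isoleucine, anticodon AAT) had 333 in the pooled list, 165 in replicate 1 and 174 in replicate 2, and lay 1096 bp from the 5′ end of ets-5, which encodes an ETS-domain factor. M02F4.t1 (glycine) and M02F4.t2 (glutamate) are neighbours on opposite strands and share 1 summit, with 317 in the pooled list, 156 in replicate 1 and 162 in replicate 2. The list cannot divide that signal between them.

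The remaining 4 of the 10 lay inside protein-coding genes. F15G9.t1 (alanine, anticodon TGC) lies in an intron of him-4, which encodes the extracellular matrix protein hemicentin, and had 315 in the pooled list, 179 in replicate 1 and 141 in replicate 2. C28G1.t1 (glutamate, anticodon TTC) was the only tRNA gene on X that overlapped an exon, of C28G1.2, and had 312 in the pooled list, 146 in replicate 1 and 160 in replicate 2. F41D9.t3 (asparagine) lies in an intron of sulp-3 and had 295 in the pooled list, 146 in replicate 1 and 153 in replicate 2. F17H10.t1 (glycine, anticodon GCC) lies in an intron of snx-17, which encodes a sorting nexin, and had 287 in the pooled list, 155 in replicate 1 and 135 in replicate 2. In each of the 10 both replicates were at least 135 in signal, far above the list medians.

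At the edge of the optimal list the genes were close in value. Just inside it were F55G7.t2 (73.1), T07H6.t1 (75.5) and F55F3.t1 (75.6), and just outside it D1009.t1 (70.9), F52E10.t5 (66.1) and F42F12.t1 (63.6). Membership of the optimal list therefore does not separate these 6 genes by much.

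The tRNA gene nearest to ttx-3 itself was C40H5.t1, 6542 bp away. The window of ttx-3 with 20 kb to each side held 15 pooled regions, 33.4 per 100 kb, with a median signal of 36.5. The whole of X had 25.4 per 100 kb with a median of 26.5. The adjoining windows of 20 kb had medians of 21.8 and 23.7. The line carries tagged ttx-3 as a transgene, so the copy number of the region around ttx-3 in these embryos is unknown. Its part in the signals of this window, that of C40H5.t1 among them, was not tested. The next tRNA gene, C34E11.t1, lay 37210 bp from ttx-3 and had 22.1 in the pooled list, 16.7 in replicate 2 and no summit in replicate 1.

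All 20 isotypes had members in the optimal list, from 2 genes to 7 each. The share of genes with a pooled summit ran from 26.7% for glutamine (4 of 15) to 69.2% for alanine (9 of 13). RefSeq gave no isotype for 3 genes, and none of these was in any list. The anticodon was read from the sequence by a stem of 5 paired bases around a loop of 7, and it matched the RefSeq isotype in 272 of 273 genes. Of 44 anticodons on X, 41 had a gene with a pooled summit and 40 a gene in the optimal list. The 3 without were Arg-CCG with 1 gene, Gln-CTG with 3 and Ser-TGA with 3. On II to V, Gln-CTG had a pooled summit at 2 of 4 genes and Ser-TGA at 3 of 5.

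Among isotypes with charged side chains, glutamate had 23 genes on X, 14 with a pooled summit and 7 in the optimal list. Lysine had 8 of 18 with a pooled summit, led by W03G11.t1 and, for anticodon TTT, by C33G3.t2 with 269 in the pooled list, 144 in replicate 1 and 124 in replicate 2. Aspartate had 6 of 12, led by F38G1.t2, in an intron of egl-17, which encodes a fibroblast growth factor. F38G1.t2 had 255 in the pooled list, 129 in replicate 1 and 132 in replicate 2. Arginine had the most genes, 27, of which 13 had a pooled summit and 7 were in the optimal list. Its strongest was F28H6.t1, with anticodon CCT and 269 in the pooled list, 134 in replicate 1 and 130 in replicate 2. Histidine had 4 of 9.

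Among the hydrophobic and aromatic isotypes, leucine held the 2 strongest genes and had 9 of 17 with a pooled summit. Isoleucine had 7 of 13, methionine 5 of 8 and phenylalanine 3 of 6. Tryptophan had 3 of 5, which include sup-7 and sup-28, genes known for mutant alleles that read amber stop codons. sup-7 had 179 in the pooled list, 81.2 in replicate 1 and 95.8 in replicate 2, and sup-28 had 95.5, 52.1 and 43.0. sup-21 and sup-33, with the same sequence, had no summit in any list. Valine had 7 of 14, and 50% of the genes of each of its anticodons had a pooled summit. Of 10 genes with AAC, 5 had one, with a highest signal of 41.0, and none was in the optimal list (upper limit 30.8%). With CAC it was 1 of 2, F59C12.t3 with 77.0 in the pooled list, 42.6 in replicate 1 and 32.1 in replicate 2. With TAC it was 1 of 2, R04D3.t2, which had 266 in the pooled list, 130 in replicate 1 and 129 in replicate 2. The other gene with TAC, F35A5.t1, had no summit in any list.

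Among the small and polar isotypes, glycine had 13 of 20 with a pooled summit, threonine 8 of 14, serine 7 of 18 and asparagine 3 of 6. Proline had 8 of 20 and cysteine 4 of 7. The strongest threonine tRNA gene, R01H5.t1, had 279 in the pooled list, 114 in replicate 1 and 166 in replicate 2. E03E2.t1, a serine tRNA gene in an intron of cat-1 (a transporter that loads monoamines into vesicles), had 210 in the pooled list, 105 in replicate 1 and 111 in replicate 2. The anticodon reading placed an intron inside 12 genes, and 6 of these had a pooled summit and 5 an optimal one. A reading by stem and loop can miss an intron. Each isotype had genes in the optimal list, and each isotype also held genes without a summit.

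The strongest genes of several further anticodons were similar in the replicates, while those of others were not. Y59E1B.t2 (proline, CGG) had 85.5 in replicate 1 and 24.7 in replicate 2. C53C7.t1 (serine, AGA) had 95.2 and 35.9 in the same order, and F55G7.t2 (threonine, CGT) had 24.5 and 47.5. The genes that follow differed less. For alanine, F34H10.t1 (AGC) had 200 in the pooled list, 103 in replicate 1 and 92.6 in replicate 2. For arginine, T06H11.t2 (ACG, in an intron of unc-58) had 168 in the pooled list, 86.1 in replicate 1 and 79.7 in replicate 2, and F17A2.t1 (TCG) had 83.1, 45.6 and 36.9 in the same lists. For leucine, ZK678.t1 (CAG) had 223 in the pooled list, 99.8 in replicate 1 and 130 in replicate 2. The lowest was T01B4.t1 (valine, AAC), with 41.0 in the pooled list, 28.2 in replicate 1 and 20.9 in replicate 2. T28B4.t1 (phenylalanine) had 216 in the pooled list, 96.2 in replicate 1 and 119 in replicate 2. F42D1.t1 (cysteine) had 163 in the pooled list, 75.8 in replicate 1 and 78.2 in replicate 2. In each of these genes both replicates were above the medians of their lists. The genes were chosen by pooled signal, which draws on both replicates.

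**Figure D3:**
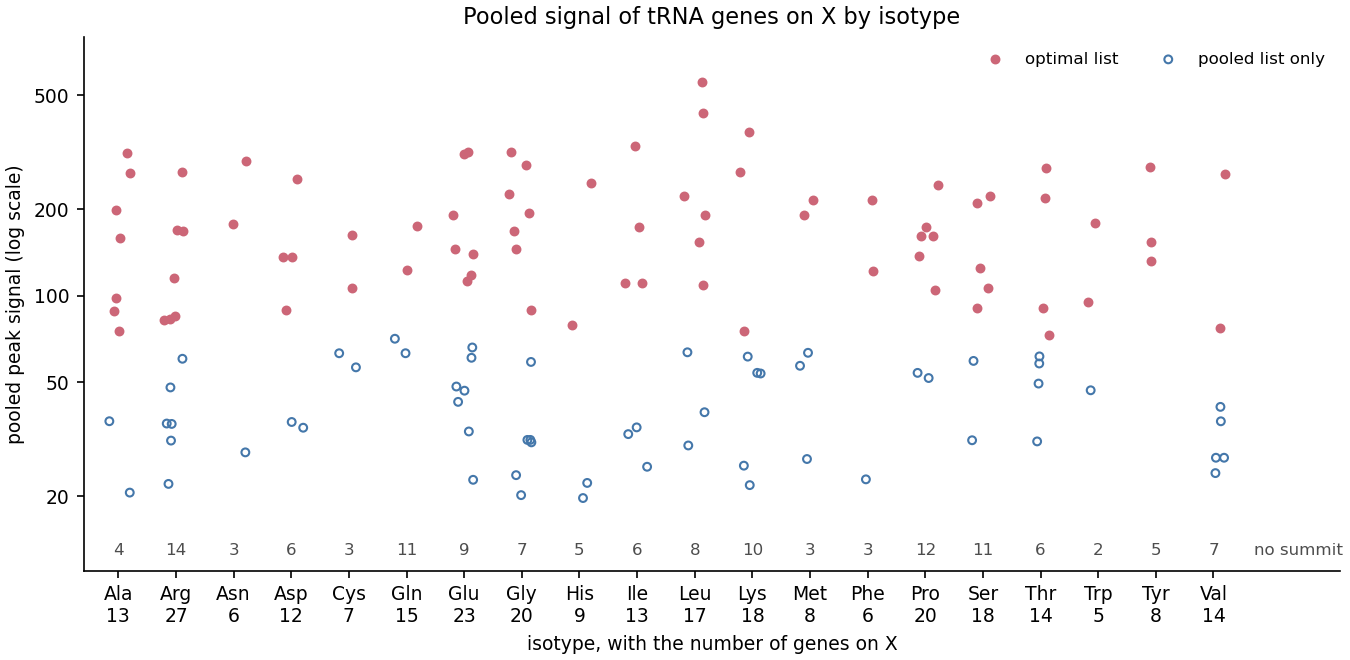
Pooled signal (vertical axis, log scale) of each tRNA gene on X with a pooled summit, by isotype (horizontal axis, with the number of genes on X below each name). Filled red points are in the optimal list, open blue points in the pooled list alone, and the grey numbers count the genes with no pooled summit. All 20 isotypes have points in both the red and the grey class, and the highest point, 557, is a leucine tRNA gene.

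Exact copies of a gene differed widely in signal. The 276 genes had 106 distinct sequences, and 33 sequences were present at 2 or more places on X, in 203 genes. In 20 of these groups there were 5 or more copies, 162 genes in all. Each of the 20 held copies with and copies without a pooled summit, and each had at least 1 copy in the optimal list. Between the strongest and the weakest copy with a summit the ratio of pooled signal ran from 2.12 to 17.0, with a median of 7.22, or 6.88 without genes that share a summit. Copies share their internal promoter letter for letter, so the A and B boxes were the same throughout each group.

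The largest group was proline with anticodon TGG, with 13 copies on X. Its strongest was ZK899.t1, with 244 in the pooled list, 117 in replicate 1 and 127 in replicate 2, and its weakest with a summit was C16B8.t1, with 51.7, 26.6 and 29.9. Pooled summits lay at 5 of the 13 copies, and 7 copies were in no list at all. The group of 12 glutamate genes with anticodon CTC had 7 of 12 in the pooled list, down to F15A8.t1 at 22.8. Its highest value, 317, is that of the summit M02F4.t2 shares with M02F4.t1. Without genes that share a summit the strongest was rte-1, with 145 in the pooled list, 87.6 in replicate 1 and 55.6 in replicate 2, and the ratio of strongest to weakest was 6.35 in place of 13.9. The group of 11 glycine genes with anticodon TCC had 7 in the pooled list, down to ZK154.t3 at 30.8. The same shared summit, nearer to M02F4.t1 than to M02F4.t2, gave its highest value, and without it K09C8.t1 was the strongest, with 226 in the pooled list, 86.7 in replicate 1 and 137 in replicate 2, a ratio of 7.34 in place of 10.3. The ratio between strongest and weakest was highest among the 10 lysine genes with anticodon CTT, at 17.0, with W03G11.t1 at 371 and F55F3.t2 at 21.9.

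The histidine and tyrosine groups are shown with the sequence before the gene. Of the 8 histidine genes with the sequence of C06G1.t1, that gene had 248 in the pooled list, 152 in replicate 1 and 98.4 in replicate 2. Of the others, F28H6.t7 had 22.3 and C49F5.t1 had 19.7 in the pooled list, F28H6.t2 had 11.2 in replicate 1 alone, and 4 were in no list. The 50 bases before the gene are printed for the strongest copy, the single weak copy, and 2 copies of the cluster that were in no list, with low and high G and C content.
C06G1.t1 upstream: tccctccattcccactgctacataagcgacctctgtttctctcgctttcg
C49F5.t1 upstream: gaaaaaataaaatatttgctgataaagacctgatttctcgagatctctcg
F28H6.t3 upstream: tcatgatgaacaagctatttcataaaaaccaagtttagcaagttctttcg
F28H6.t5 upstream: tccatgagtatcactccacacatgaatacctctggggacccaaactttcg
G and C made up 52.0% of the 50 bases at C06G1.t1, 32% at C49F5.t1, 32% at F28H6.t3 and 48% at F28H6.t5. In the rest of the cluster it was 32% to 38%, so the unlisted copies ranged from 32% to 48%, near the value of the strongest copy at the upper end. Of the 6 tyrosine genes with the sequence of C02B4.t2, that gene had 280 in the pooled list, 150 in replicate 1 and 140 in replicate 2, and R11.t1 had 132 in the pooled list, 77.7 in replicate 1 and 60.5 in replicate 2. The other 4 were in no list: F56F10.t1, in an intron of lgl-1, and R11.t2, R11.t3 and R11.t4, which lie in a row with R11.t1.
C02B4.t2 upstream: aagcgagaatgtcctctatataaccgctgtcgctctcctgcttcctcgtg
R11.t1 upstream: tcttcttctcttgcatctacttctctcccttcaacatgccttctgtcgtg
R11.t2 upstream: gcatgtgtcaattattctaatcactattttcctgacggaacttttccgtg
R11.t3 upstream: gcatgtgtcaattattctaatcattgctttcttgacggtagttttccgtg
R11.t4 upstream: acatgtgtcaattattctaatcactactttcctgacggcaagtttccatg
F56F10.t1 upstream: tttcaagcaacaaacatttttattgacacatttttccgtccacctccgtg
The flank held 52.0% G and C at C02B4.t2 and 46% at R11.t1, against 38.0% at each of the 4 copies without a summit. These 2 groups were chosen after their values were seen.

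**Figure D4:**
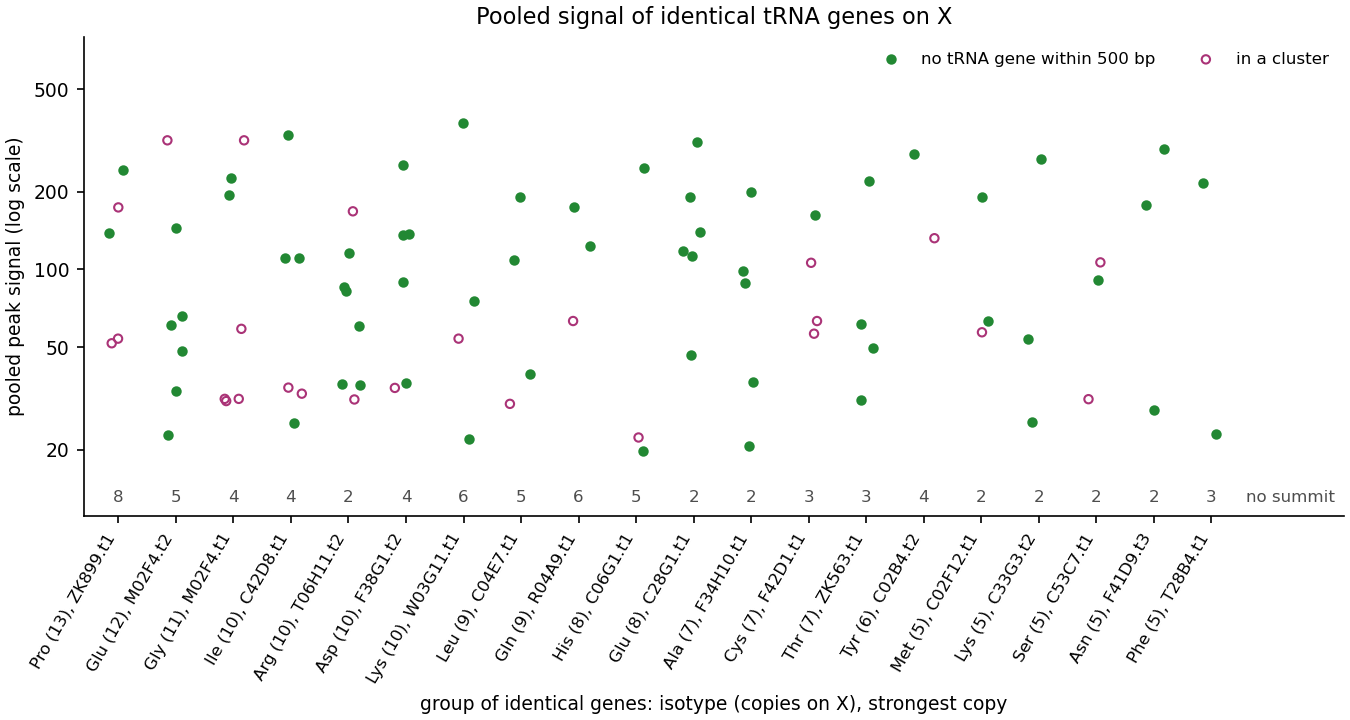
Pooled signal (vertical axis, log scale) of identical tRNA genes on X, for the 20 groups with 5 or more copies (horizontal axis, named by isotype, number of copies and strongest copy). Filled green points have no other tRNA gene within 500 bp, open purple points lie in a cluster, and grey numbers count the copies without a pooled summit. Each group spreads over a range of 2.12 to 17.0 between its strongest and weakest point.

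Genes that stood alone had summits at a higher share than genes in clusters. A cluster was a run of tRNA genes with at most 500 bp between neighbours. Of 168 single genes, 60.1% had a pooled summit (52.3% to 67.6%) and 37.5% an optimal one (30.2% to 45.3%). Of 108 clustered genes, 34.3% had a pooled summit (25.4% to 44%) and 14.8% an optimal one (8.71% to 22.9%). The intervals do not overlap in either list, though they treat genes as independent, which clustered genes are not. On II to V the pooled shares were 60.2% for 216 single genes and 25.9% for 54 clustered genes. Within the 20 groups of identical genes, 68.5% of single copies and 35.7% of clustered copies had a pooled summit. The strongest copy was a single gene in 16 of 20 groups, where single genes made up 56.8% of the copies. Without genes that share a summit the count was 18 of 20. Genes that share a summit all lie in clusters, so leaving them out could not lower this count.

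The 43 clusters on X held 30 pairs and 13 larger runs. In 7 of them every gene had a pooled summit, in 15 none had, and 13 had a gene in the optimal list. A summit shared by neighbours counts for each of its genes, here and in the shares by cluster size. The 7 therefore include clusters with fewer summits than genes, those of M02F4, C16B8, T10B10 and C16H3. All genes carried the same amino acid in 32 clusters and were identical in 17. The share of genes with a pooled summit was 40% in pairs, 33.3% in runs of 3, 25% in runs of 4, 20% in runs of 5 and 16.7% in the run of 6, although the last 3 classes hold 8, 10 and 6 genes.

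In each of the 5 clusters of 4 or more genes a single gene had a pooled summit. The run of 6 histidine genes, F28H6.t2 to F28H6.t7 (chrX:14135045-14137010), had 1 pooled summit, at 22.3. Repeats also lie in this run: the median share of 30-base words that occur once in the genome was 20.8% over these genes with their flanks, against medians between 77.1% and 77.8% in the optimal, the pooled-only and the unlisted genes of X. Whether repeated sequence has a part in the low signal of this run was not tested. In the run of 4 tyrosine genes R11.t1 alone had a summit, and the words were unique at 69.4% to 72.9%. In the run of F22F1.t4 to F22F1.t7 the methionine gene F22F1.t6 alone had one, with 216 in the pooled list, 102 in replicate 1 and 118 in replicate 2. In the 5 genes of the K01A12 run, K01A12.t2 (cysteine) had 63.1 in the pooled list, 30 in replicate 1 and 37.6 in replicate 2, while K01A12.t4 had 24.3 and K01A12.t3 had 15.1 in replicate 2 alone. K01A12.t1 and K01A12.t5 were in no list. In the 5 glutamine genes inside ajm-1, H08J11.t3 had 63.1 in the pooled list, 38.5 in replicate 1 and 29.5 in replicate 2, and H08J11.t1, H08J11.t2, H08J11.t4 and H08J11.t5 were in no list.

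The share of unique sequence was also set against the summits over all genes. Among the 4 genes on X with under 25% unique words none had a pooled summit, and among 7 with 25% to 50% there was 1. In the other classes, 54.2% of 48 genes with 50% to 75% unique words and 51.2% of 217 genes with more had a pooled summit. With clustered genes left out, 61.8% of genes with 75% or more unique words and 53.1% of the others had one. Clustered genes with 75% or more unique words had a share of 33.3%, and the other clustered genes 37%.

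Genes whose annotated sequence occurs once among the 612 nuclear tRNA genes had summits at a lower share than copied genes. Sequences were compared from annotated start to end, and copies outside annotated tRNA genes were not counted. F18G5.t1 and F18G5.t2 match the copied alanine gene with anticodon AGC except at their ends, and both counted as once-found. Of the 57 once-found genes, 29.8% had a pooled summit (18.4% to 43.4%) and 14% an optimal one. The class includes the 3 genes without an isotype and F49E7.t1, whose anticodon reading did not match its isotype, all in no list. Near-copies of copied genes also count here, such as K01A12.t1 and T14G8.t1, in no list, and D1009.t1, with 70.9 in the pooled list. Their part in the low share was not tested. Of 219 genes with 2 or more copies, 55.3% had a pooled summit (48.4% to 62.0%) and 32.4% an optimal one. On II to V the pooled shares were 40.5% of 74 genes and 58.2% of 196 genes. Among single genes of X, 33.3% of 36 once-found genes and 67.4% of 132 copied genes had a pooled summit. Some once-found genes were strong: C04A11.t1 at 435, C02B4.t1 (isoleucine, anticodon TAT) at 173 and K02A4.t2 (alanine, anticodon CGC) at 159.

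The base content just before the gene differed with the summits. In the 50 bases before the 5′ end, the median share of G and C was 46% in the optimal genes, 40% in genes of the pooled list alone and 38.0% in genes without a pooled summit. Of 81 genes with 46% or more, 71.6% had a pooled summit (60.5% to 81.1%) and 49.4% an optimal one. Of 116 genes from 36% to 44%, the shares were 49.1% and 30.2%, and of 79 genes under 36% they were 29.1% (19.4% to 40.4%) and 5.06%. On II to V the pooled shares in the same classes were 66.9%, 51.0% and 17.1%. The classes were drawn after the values had been seen. The part of G and C content in the signal was not tested. Within single genes the shares were 81.4% of 59 genes with 46% or more and 48.6% of the others, and within clusters 45.5% of 22 and 31.4% of the others.

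The motifs of RNA polymerase III genes were common to genes with and without a summit. A match to the B box core was present in 97.1% of tRNA genes on X and 95.9% of those on II to V, searched on the gene strand, against 2.64% of 72-bp tiles of X searched on both strands. The A box core was found in the first 30 bases of 40.2% of genes on X, 44.4% on II to V and 2.31% of 30-bp tiles. A run of TTTT within 30 bp after the gene was present at 98.9% of genes on X, 99.3% on II to V and 34.8% of 30-bp tiles on the forward strand. The 3 genes without it, Y75D11A.t2, C28G1.t5 and F52E10.t2, were in no list. Of 268 genes with a B box match 49.6% had a pooled summit, as did 5 of the 8 without one. The pair C16B8.t2 and C16B8.t3, which share a summit of 162, and the methionine gene F22F1.t6 were among these 8. A missing match says only that these letters are not in the gene.

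The core TAATTA, which LIM homeodomain proteins recognise, was searched near the genes. It lay within 100 bp of 30 tRNA genes on X (10.9%), of 6.30% of those on II to V and of 13.6% of 272-bp tiles of X. A pooled summit was present at 15 of the 30 genes with the letters (50%) and at 123 of 246 without (50%). Optimal summits lay at 8 of the 30 (26.7%) and at 71 of the 246 (28.9%).

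Summits were spread around the gene, with their median position in its 5′ part. Measured on the gene strand from its first base, the pooled summit had a median position of 15.5 bp (quartiles -10.75 and 51.75), and 48.6% lay inside the gene, 34.1% upstream and 17.4% downstream. The rule sets the outer limits, 100 bp to each side. For optimal summits the median was 9.0 bp, and 54.4% were inside, 39.2% upstream and 6.33% downstream. The replicate lists had medians of 29.5 bp (replicate 1) and 27.0 bp (replicate 2), nearer to the middle of a median gene of 72 bp. On II to V the medians were 18 bp for pooled and 18.5 bp for optimal summits. C40H5.t1 had its summit 6 bp and C04A11.t1 13 bp inside the gene, and W03G11.t1 1 bp before it.

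**Figure D5:**
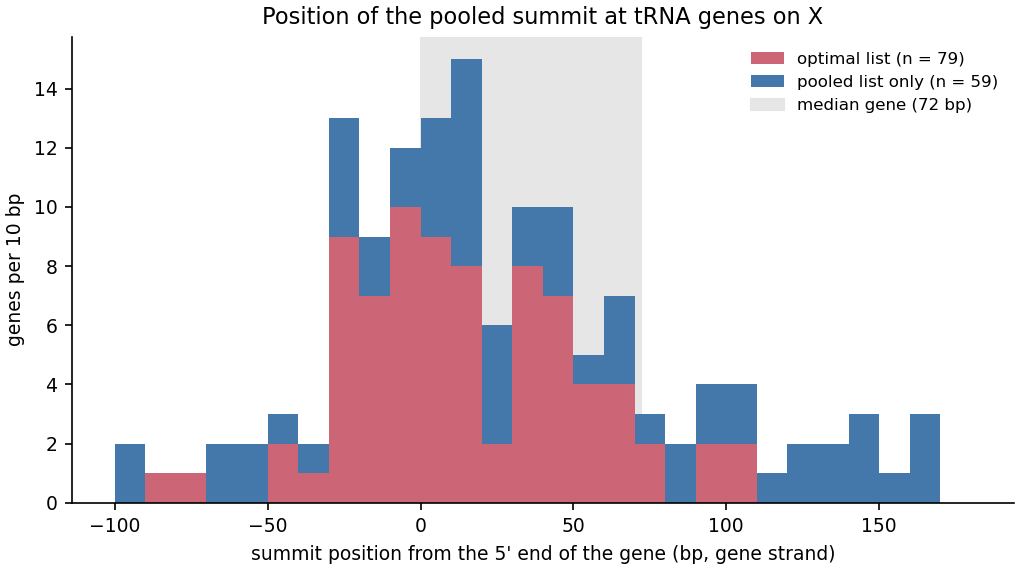
Number of tRNA genes on X (vertical axis, per 10 bp) by position of their pooled summit from the 5′ end of the gene on the gene strand (horizontal axis, bp). Red bars are the 79 genes of the optimal list and the blue bars on top of them the 59 of the pooled list alone, and the grey band is a median gene of 72 bp. The red bars gather around the 5′ end, with a median of 9.0 bp.

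Shares by position relative to protein-coding genes had overlapping intervals. Of 180 intergenic tRNA genes, 48.9% had a pooled summit (41.4% to 56.4%) and 30% an optimal one. Of 95 in introns, 51.6% had a pooled summit (41.1% to 62.0%) and 25.3% an optimal one. Among intronic genes, 57.8% of the 45 on the opposite strand to the host and 46% of the 50 on the same strand had a pooled summit, with intervals of 42.2% to 72.3% and 31.8% to 60.7% that overlap widely. The distance to the nearest protein-coding 5′ end gave 51.5% for up to 500 bp, 52.9% for distances above that and up to 2000 bp, and 46.8% for more. Along X the genes were uneven, with 71 between 8 and 10 Mb, of which 38.0% had a pooled summit, and 16 between 2 and 4 Mb, of which 87.5% had one (61.7% to 98.4%). These 16 include the pair M02F4.t1 and M02F4.t2 and the pair C16B8.t2 and C16B8.t3, each pair at 1 summit. The 2-Mb windows were compared after their values were seen.

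Other genes of the RNA polymerase III system were scored as well, from a list chosen by function. The RNAs of the processing enzymes were strong: rpr-1, the RNA of RNase P, which trims the 5′ end of tRNAs, had 227 in the pooled list, 118 in replicate 1 and 112 in replicate 2. mrpr-1, the RNA of RNase MRP, had 170 in the pooled list, 84.8 in replicate 1 and 88.8 in replicate 2. Neither the 16 annotated 5S rRNA genes nor the Y RNA gene yrn-1 had a pooled summit, and 1 of the 5S genes had 13.3 in replicate 2. The share of unique sequence was not measured at the 5S genes. Whether repeated sequence has a part in their missing summits was not tested. U6 snRNA genes are not named in the annotation and were left out. Among protein-coding genes of the machinery, 8 of 11 had a pooled summit in the promoter window from 1000 bp upstream to 300 bp downstream of a 5′ end, against 39.9% of all 19985 protein-coding genes. A single one, rpac-19, a subunit shared by RNA polymerases I and III, was in the optimal list, with 137 in the pooled list, 69.3 in replicate 1 and 66.3 in replicate 2, where the share over all protein-coding genes was 3.01%. The subunits and factors without a pooled summit were rpc-1, tftc-3 and mafr-1.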

How the data were processed

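ChIP-seq peak lists of TTX-3-eGFP late embryos, 1 group of 2 biological replicates per the labels, were used on ce11. The README files deposited by the authors trace a replicate list to that replicate's alignment plus 1 control file common to both, the pooled list to both alignments, and the optimal list to the other lists. Aligner, peak caller and reproducibility threshold: not given in the sources used here. For every region, the signal is the value the authors deposited, used only within a list and to set the replicates side by side. The ce10 lists were not used, because no coordinates were converted between builds, and the control was not analysed here.

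Genes came from Ensembl release 115, isotypes and pseudogenes from RefSeq, both on WBcel235. Each gene took the strongest summit within 100 bp. Symbols of 275 genes came from RefSeq by WormBase gene ID. The members and lists were chosen with earlier results of these data known. Named genes were the 10 strongest, 3 on each side of the optimal list's edge, 3 with the largest and 3 with the smallest replicate ratio, the strongest of each anticodon, the ends of the 3 largest groups of identical genes, the 3 densest clusters, and the genes at ttx-3 and ser-2. The others named were chosen after their values were seen. Intervals are exact binomial (Clopper-Pearson) at 95%. A printed sequence was read from the genome by its coordinates. The scoring was tested on simulated lists. Python 3.11.15, numpy 2.4.6, pandas 2.3.3, scipy 1.17.1 and matplotlib 3.10.9 were used.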

Additional observations from a re-analysis of the deposited data

How the results depend on the processing

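Of 46 alternatives, 37 left the value within the limits set for it. The limits for shares were wide: optimal shares of 22.1% and 37.5% and a pooled share of 60.1% all lay within them. For the median signal and the median position the limit was the standard deviation of the 2 replicate values, 0.226 and 1.77 bp. The optimal share ran from 22.1% (the 350 strongest regions) to 37.5% (genes with no other tRNA gene within 500 bp), the pooled share from 43.5% (summits within 50 bp) to 60.1% (the same single genes), the share in both replicates from 34.1% to 50.6% and the correlation of replicate signal from 0.846 to 0.906. The median pooled signal of 89.4 moved to 106.0 with summits within 50 bp, 77.0 within 200 bp, 153.0 with 1 gene of each group of identical sequences, 95.5 for genes with no other tRNA gene within 500 bp and 74.3 when overlap of region and gene was counted. Wider rules bring in more and weaker regions by construction. Leaving out each replicate in turn gave medians of 46.3 to 46.6, which come from lists with their own scale, and a median summit position of 27.0 to 29.5 bp, against 15.5 bp in the pooled list. The cause of the shift in position was not tested. Alternatives added after seeing the data leave out genes that share a summit, which lowered the ratio of strongest to weakest glutamate copy to 6.35, against 13.9. No paired analysis was possible because there is 1 group and no second condition. Depth is unknown, so an absent summit cannot be told from a weak one.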
